A study of Mus musculus with 6 samples.

Results

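The genes of glycolysis and of the handling of its product, pyruvate, were followed in cultured mouse bone marrow cells with and without the cryptochromes. The set held 31 genes chosen by name, from the glucose transporters to the pyruvate dehydrogenase complex and the transporters of lactate. Of these, 28 had at least 1 probe set that the array annotation pairs with that gene symbol alone, 62 probe sets in all, out of 18193 genes with such a probe set. Gpi1 and Eno1 had none, and Gapdh had only control probe sets, so these genes were not analysed here as members. Each gene was summarised by its probe set with the highest mean signal. In 27 of the 28 genes that probe set lay above the filter on dim signal, and Eno2 did not pass it. The samples were 3 arrays of bone marrow cells from Cry1 and Cry2 double knockout mice (DKO 1 to DKO 3) and 3 of cells from wild type mice (WT 1 to WT 3), all labelled as strain C57BL/6. All 6 cultures received interleukin-7 at 10 ng/ml in a medium with 20% fetal bovine serum, and total RNA was biotin-labelled. Age, sex, time of harvest and the number of mice are not given here, nor is it said whether arrays of a genotype came from separate cultures. The p-values thus reflect the spread among these 6 samples alone, and part of it may be technical.

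Glycolysis splits glucose into pyruvate in the cytosol and yields ATP without oxygen. Hexokinase, phosphofructokinase and pyruvate kinase catalyse its practically irreversible steps. Pyruvate is then either reduced to lactate, which leaves the cell through monocarboxylate transporters, or enters mitochondria and is oxidised by the pyruvate dehydrogenase complex, which pyruvate dehydrogenase kinases switch off. Dividing B cell precursors, the cells that interleukin-7 sustains, take up glucose and make lactate, and many genes of the pathway are known targets of HIF-1 and MYC. Cryptochromes repress the clock activator CLOCK-BMAL1, which binds E-box elements.

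B lineage markers gave signal on every array, though no detection calls were used. Of 15 fixed markers 14 were tested, and their lowest intensity on any array was 88.5. Their summed intensity was 103883 to 141345 in DKO, 182705 on WT 2, and 101546 and 110969 on WT 1 and WT 3. Of the 14, 8 had a higher and 6 a lower mean in DKO, and single markers split the DKO arrays. The intensity of Dntt was 10162, 10083 and 1079 on DKO 1 to DKO 3 and 1314, 3466 and 495 on WT 1 to WT 3. That of Cd22 was 923, 1394 and 5926 on DKO 1 to DKO 3 and 6079, 11739 and 6089 on WT 1 to WT 3. The single Cry1 probe set read an intensity of 359, 399 and 545 in DKO 1 to DKO 3 and 1533, 1502 and 955 in WT 1 to WT 3, and that of Cry2 162, 178 and 133 beside 145, 102 and 105. Cry1 was thus lower on each DKO array and Cry2 was not, and whether the probes lie in the deleted parts is not known here. One wild type array, WT 2, stood apart from the rest. On it the control probe sets for the 3' and 5' ends of the Gapdh transcript read 30283 and 230, a ratio of 132, where the ratio on the other 5 arrays was 0.838 to 1.72. Across tested probe sets Pearson's r of WT 2 with the rest was 0.752 to 0.780, and that among the other 5 was 0.936 to 0.984 (Spearman's rho 0.704 to 0.736 and 0.915 to 0.972). The 3' control probe set of Gapdh, a glycolytic enzyme often used as a reference, read a centred log2 signal of 14.23, 14.22 and 14.51 in DKO 1 to DKO 3 and 14.36, 14.07 and 14.40 in WT 1 to WT 3. Centred log2 signal is log2(intensity + 16) with each array shifted to a common median, and all levels and differences are on this scale, which understates the change of dim genes.

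No gene of the pathway passed the threshold between genotypes. The most negative log2 difference was that of Hk3, a hexokinase, at -1.52, and the most positive that of Slc16a1, a lactate transporter, at 1.10, which was 0.23 without the array WT 2. Pfkm, a phosphofructokinase, was higher on each DKO array than on any WT array, and Pdhb, a subunit of pyruvate dehydrogenase, was lower on each than on WT 1 and WT 3. With all 6 arrays, 0 of the 27 tested genes were called by limma at an adjusted p under 0.05, where 0.00792% of all 12627 genes tested were called. At an unadjusted p under 0.05 there was 1 gene on the higher side in DKO, Pfkm (2.15% of all genes), and 1 on the lower side, Hk3 (1.12%). Without WT 2 there were again 0 called (0.0158% of all genes), with 1 gene higher, Pfkm (2.75%), and 1 lower, Pdhb (1.47%), at an unadjusted p under 0.05. The lowest adjusted p of any member was 0.822 by limma with all 6 arrays and 0.948 without WT 2.

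With all 6 arrays the set as a whole followed the other genes, and without WT 2 its median lay somewhat below theirs. Of the 27 genes, 18 had a higher mean in DKO and 9 a lower one (66.7% higher, where 70.2% of all genes tested were higher). The median log2 difference of the members was 0.29, and that of all genes tested was 0.30. Without WT 2 both counts turned, with 12 higher and 15 lower (44.4% higher, where 51.7% of all genes were), and the medians were -0.12 and 0.01. Under quantile normalization of the 6 arrays 14 were higher and 13 lower, with medians of 0.05 for the members and 0.01 for all genes, and with no centring 13 were higher and 14 lower. The members' median was thus close to that of all genes with all 6 arrays under both scalings. The sizes of the differences were also like those of other genes, with a median absolute log2 difference of 0.43 for the members and 0.43 for all genes with 6 arrays, and of 0.23 and 0.21 without WT 2.

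**Figure D1:**
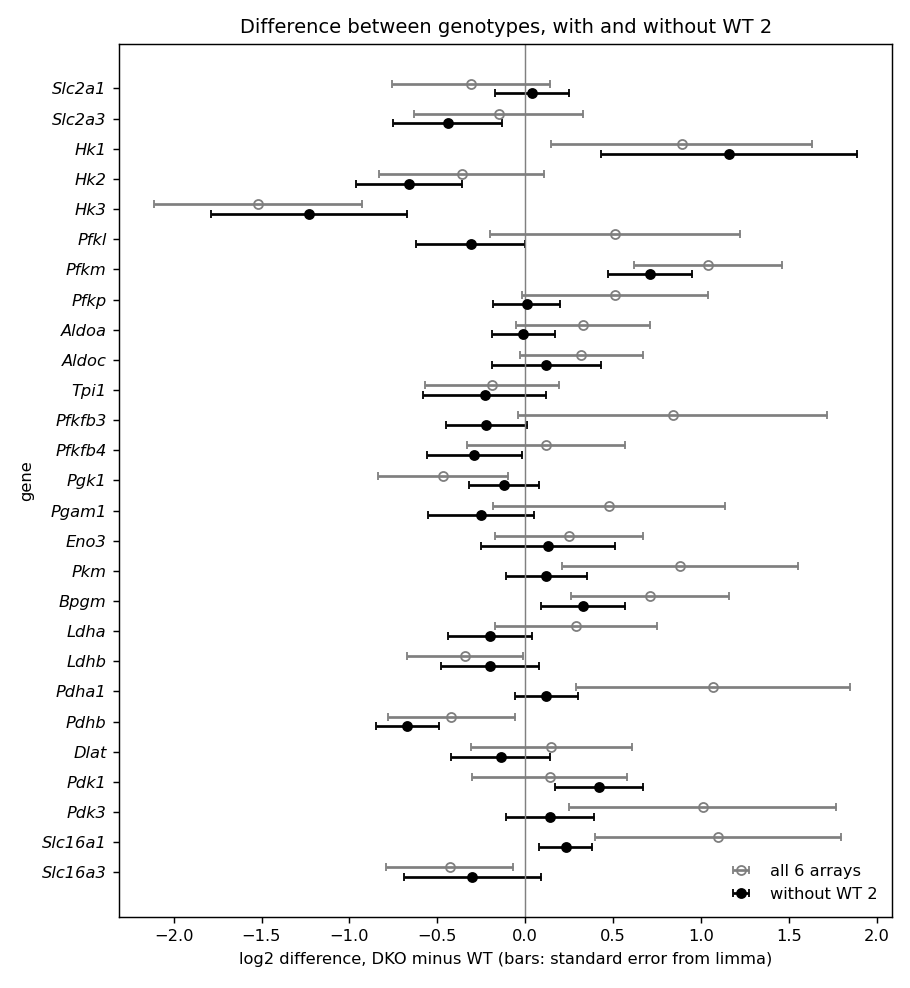
Log2 difference of each of the 27 tested genes, DKO minus WT, with all 6 arrays (open grey points) and without WT 2 (filled black points), with bars for the limma standard error. Most genes lie nearer to 0 without WT 2. Pfkfb3, Pfkl and Ldha are among those that change side, from 0.84, 0.51 and 0.29 to -0.22, -0.31 and -0.20. Each gene is shown by its probe set with the highest mean signal, and the other one of Pfkfb3 read 0.62 and 0.57.

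The promoters of the members were searched for the E-box on which CLOCK-BMAL1 acts, spelled CACGTG, which reads the same on both strands. In RefSeq sequence of build GRCm38.p6, 27 of the 28 genes with probe sets had a start site in the table. Within 250 bases before an annotated start, 4 of these 27 genes held the motif, namely Pfkm, Slc16a1, Ldha and Pfkfb3, where 6.86% of all 27025 genes listed did. The stretches around it are shown, with the motif in capitals, because CLOCK-BMAL1, which cryptochromes repress, acts through this element.
Pfkm: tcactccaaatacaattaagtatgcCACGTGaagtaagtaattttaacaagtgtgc
Slc16a1: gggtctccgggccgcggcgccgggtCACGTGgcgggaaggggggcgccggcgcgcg
Ldha: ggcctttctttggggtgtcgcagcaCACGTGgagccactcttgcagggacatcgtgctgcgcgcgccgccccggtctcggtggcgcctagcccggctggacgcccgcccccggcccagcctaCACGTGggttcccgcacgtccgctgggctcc
Pfkfb3: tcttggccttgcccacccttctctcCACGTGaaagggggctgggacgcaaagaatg
The Pfkm stretch is chr15:98092428-98092483 on the plus strand, with the motif 136 bases before 1 of 4 annotated starts. That of Slc16a1 is chr3:104638439-104638494 on the plus strand, with the motif 200 bases before its single start. That of Ldha is chr7:46845634-46845786 on the plus strand, with matches 145 and 48 bases before 1 of 2 starts. That of Pfkfb3 is chr2:11502113-11502168 on the minus strand, with the motif 53 bases before 1 of 2 starts. With all 6 arrays the log2 differences of these 4 genes were positive, as were those of 70.2% of all genes tested. They were 1.04 for Pfkm, 1.10 for Slc16a1, 0.29 for Ldha (-0.02 with no centring) and 0.84 for Pfkfb3. Without WT 2 these 4 genes did not share a direction by their leading probe sets, at 0.71, 0.23, -0.20 and -0.22. The other Pfkfb3 probe set read 0.62 with all arrays and 0.57 without WT 2. The shorter ACGTG, a core of the hypoxia response element, is contained in the E-box and was searched on both strands. It was held by 14 of the 27 genes, where 18.5% of all genes listed held it. The shares of 6.86% and 18.5% are over all 27025 genes listed, including genes not tested here. Shares among tested genes alone were not computed. A match is a description of the sequence and not evidence of binding.

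Neither glucose transporter passed the threshold, and the probe sets of Slc2a1 differed in sign. Slc2a1 encodes GLUT1, the main basal glucose importer of blood cells, and read 10.51, 10.29 and 10.31 in DKO 1 to DKO 3 and 10.39, 11.36 and 10.27 in WT 1 to WT 3. Apart from WT 2 all its values lay within the range 10.27 to 10.51, and the log2 difference was -0.31 (standard error, SE, 0.45), or 0.04 (SE 0.21) without WT 2. Another probe set of Slc2a1 read -0.15, and 0.22 without WT 2. The dimmest read 9.63, 9.34 and 9.32 in DKO 1 to DKO 3 and 9.12, 6.49 and 9.17 in WT 1 to WT 3, with all DKO arrays above all WT arrays and log2 differences of 1.17 (SE 0.74) and, without WT 2, 0.29 (SE 0.24). Without WT 2 the DKO arrays lay above WT 1 and WT 3 on both of these probe sets and not on the leading one. Slc2a3, the high-affinity transporter GLUT3 that myeloid cells also use, read 10.16, 10.08 and 10.90 in DKO 1 to DKO 3 and 11.03, 9.94 and 10.62 in WT 1 to WT 3. DKO 1, DKO 2 and WT 2 were the low arrays, and the groups overlapped, with a log2 difference of -0.15 with all arrays and -0.44 without WT 2.

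The hexokinases trap glucose in the cell as glucose 6-phosphate, and Hk1 and Hk3 had the widest ranges of the tested members over the 5 arrays other than WT 2. Hk3, an isoform typical of myeloid cells, read 7.18, 7.24 and 8.77 in DKO 1 to DKO 3 and 9.48, 9.84 and 8.45 in WT 1 to WT 3. DKO 1 and DKO 2 lay below every WT array, and DKO 3 lay above WT 3. The DKO mean was 7.73 ± 0.90 (SD, n = 3), that of WT was 9.25 ± 0.72 (SD, n = 3), a log2 difference of -1.52 (SE 0.59), or 2.88 times lower in DKO, and a limma adjusted p of 0.822. Without WT 2 the difference was -1.23 (SE 0.56), and the other Hk3 probe set read -0.88 with all arrays and -1.10 without WT 2. Hk3 thus had the same sign on both probe sets in both fits without passing the threshold in either.

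Hk1, the isoform of most tissues, read 12.25, 11.92 and 9.76 in DKO 1 to DKO 3 and 10.60, 10.96 and 9.70 in WT 1 to WT 3. It was high on DKO 1 and DKO 2, while DKO 3 was close to WT 3. The log2 difference was 0.89 (SE 0.74), and 1.16 (SE 0.73) without WT 2, so that the spread within DKO was larger than the difference between the means. Hk2, the inducible isoform of proliferating cells, read 9.49, 9.45 and 10.21 in DKO 1 to DKO 3 and 10.51, 9.48 and 10.24 in WT 1 to WT 3. All DKO arrays were below WT 1 and WT 3, DKO 3 by 0.03 only, and WT 2 was as low as DKO 1. The deposited intensities, with no centring, were 674, 638 and 940 in DKO and 1355, 1242 and 995 in WT. On this scale the groups did not overlap. The log2 difference of Hk2 was -0.36 (SE 0.47), and -0.66 (SE 0.30) without WT 2 (limma adjusted p = 0.948).

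Markers of other blood cells also differed among the arrays. All 13 tested granulocyte markers had a lower mean in DKO, and they summed to an intensity of 696, 657 and 27936 on DKO 1 to DKO 3 and of 76126, 179495 and 19372 on WT 1 to WT 3. For macrophages and monocytes 12 of 13 markers had a lower mean in DKO (13 of 13 under quantile normalization), with sums of 25751, 17760 and 30671 on DKO 1 to DKO 3 and of 52888, 111303 and 21372 on WT 1 to WT 3. Both sums were highest on WT 2, where Hk3 was also highest. Hk2 and Slc2a3 were low there on the centred scale. In deposited intensity, not centred, as with the sums, they read 1242 and 1716 on WT 2, above every DKO array. The sums are not centred, and S100a8 (94059) and S100a9 (69958) made up most of the granulocyte sum on WT 2. Centred list medians, against each gene's mean over the arrays other than WT 2, were highest on WT 1. For granulocytes they were -2.48, -2.05 and 1.9 on DKO 1 to DKO 3 and 2.56, 0.5 and 0.75 on WT 1 to WT 3. For macrophages and monocytes they were -0.9, -0.8 and 0.63 on the DKO arrays and 1.11, 0.12 and 0.05 on the WT arrays. T cell, NK cell and innate lymphoid markers had a higher mean in DKO for 8 of 9 (7 of 9 with no centring). Their sums were 6176, 5576 and 454 on DKO 1 to DKO 3 and 461 to 1149 on the WT arrays. Most of the sums on DKO 1 and DKO 2 came from 1 gene, Lat. It read 5235, 4020 and 183 on DKO 1 to DKO 3 and 593, 347 and 183 on WT 1 to WT 3. The lowest intensities in these 3 lists were 1.77, 21.4 and 4.43, and without detection calls they do not show whether a transcript was present. The part of these cells in the Hk1, Hk2, Hk3 and Slc2a3 values was not tested, and in bulk RNA fewer cells of a type and less RNA per cell cannot be told apart.

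**Figure D2:**
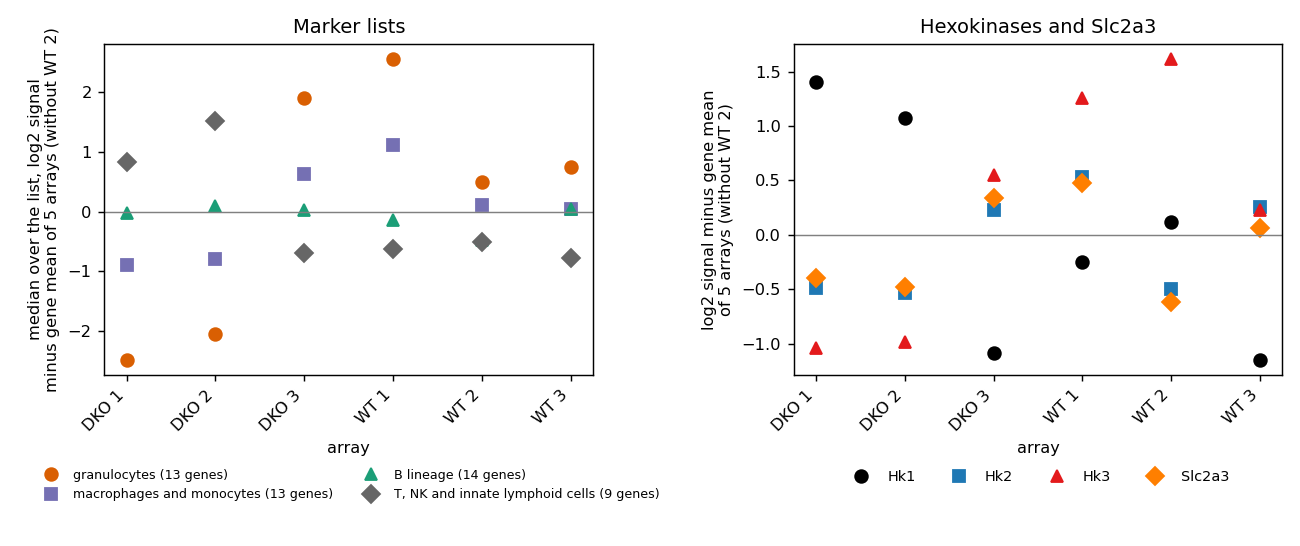
Left, the median of each marker list on each array, and right, the centred log2 signal of Hk1, Hk2, Hk3 and Slc2a3, all as differences from the gene's mean over the 5 arrays other than WT 2. Granulocyte markers (-2.48 and -2.05) and Hk3 are low on DKO 1 and DKO 2 but not DKO 3, where the granulocyte median is 1.90, and Hk1 is high on DKO 1 and DKO 2.

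In upper glycolysis the phosphofructokinase isoforms, which commit sugar to the pathway, did not move together. Pfkm, the muscle-type isoform, read 9.12, 9.16 and 9.13 in DKO 1 to DKO 3 and 8.25, 7.43 and 8.60 in WT 1 to WT 3. All DKO arrays lay above all WT arrays, within 0.04 of each other. The DKO mean was 9.14 ± 0.02 (SD, n = 3), that of WT was 8.09 ± 0.60 (SD, n = 3), a log2 difference of 1.04 (SE 0.42), or 2.06-fold, and a limma adjusted p of 0.822. Without WT 2 it was 0.71 (SE 0.24), or 1.64-fold (limma adjusted p = 0.948). Pfkm had a single probe set, and its deposited intensities, with no centring, were 516, 520 and 436 in DKO and 272, 287 and 307 in WT.

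Pfkl, the liver-type isoform, read 8.49, 8.63 and 9.29 in DKO 1 to DKO 3 and 9.20, 6.67 and 9.01 in WT 1 to WT 3. Its positive log2 difference of 0.51 came with the low WT 2 value and was -0.31 without it. Pfkp, the platelet-type isoform, read 10.79, 10.80 and 10.81 in DKO 1 to DKO 3 and 10.85, 9.27 and 10.73 in WT 1 to WT 3. On the 5 arrays other than WT 2 it was the steadiest member, and its log2 difference of 0.51 became 0.01 (SE 0.19) without WT 2. The aldolase Aldoa and the triose phosphate isomerase Tpi1, which make and interconvert the triose phosphates, had log2 differences of -0.01 and -0.23 without WT 2, and the minor aldolase Aldoc one of 0.12. Tpi1 read 12.49, 12.48 and 13.54 in DKO 1 to DKO 3, lower on DKO 1 and DKO 2 and higher on DKO 3 than WT 1 (12.87) and WT 3 (13.27).

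Bifunctional enzymes of the Pfkfb family set the level of fructose 2,6-bisphosphate, an activator of phosphofructokinase. Pfkfb3 read 9.96, 10.18 and 10.31 in DKO 1 to DKO 3 and 10.29, 7.17 and 10.45 in WT 1 to WT 3. The WT 2 value was the farthest below the others of any member by its leading probe set, and the log2 difference went from 0.84 to -0.22 without it. The other Pfkfb3 probe set did not change sign, at 0.62 with all arrays and 0.57 without WT 2. Pfkfb4 differed by 0.12 with all arrays and by -0.29 without WT 2.

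In lower glycolysis no gene passed the threshold. Pkm, pyruvate kinase, read 12.42, 11.88 and 12.42 in DKO 1 to DKO 3 and 12.19, 9.85 and 12.04 in WT 1 to WT 3. DKO 2 was below WT 1 and WT 3 and the other DKO arrays above, and the log2 difference of 0.88 was 0.12 (SE 0.23) without WT 2. Which splice form of pyruvate kinase, M1 or M2, the probe set reads is not given in the tables used here. Pgk1, phosphoglycerate kinase, read 13.35, 13.31 and 13.86 in DKO 1 to DKO 3 and 13.56, 14.67 and 13.70 in WT 1 to WT 3, with WT 2 high. Its log2 difference was -0.47, and -0.12 without WT 2. The mutase Pgam1 differed by 0.48 with all arrays and by -0.25 without WT 2, and the muscle enolase Eno3 by 0.25 and 0.13. The neuronal enolase Eno2 was dim, at 4.42 to 5.78 on the 6 arrays, and was not tested.

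Bpgm, which makes 2,3-bisphosphoglycerate in a side branch known from red cells, read 9.19, 9.26 and 9.22 in DKO 1 to DKO 3 and 8.73, 7.74 and 9.06 in WT 1 to WT 3. All DKO arrays were above all WT arrays. The log2 difference was 0.71 (SE 0.45), and 0.33 (SE 0.24) without WT 2, and the other Bpgm probe sets read 0.14 and -0.20 without WT 2. Of 6 tested erythroid markers 4 had a higher and 2 a lower mean in DKO. Their summed intensity was 17161 to 20114 in DKO and 16501 to 22765 in WT, and their lowest single intensity was 3.06. With no centring 1 of the 6 was higher and 5 lower, and the part of red cell precursors in the Bpgm values was not tested.

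Lactate dehydrogenase A, which turns pyruvate into lactate, overlapped between the genotypes. Ldha read 13.77, 13.82 and 14.52 in DKO 1 to DKO 3 and 14.13, 12.77 and 14.34 in WT 1 to WT 3. DKO 1 and DKO 2 were below WT 1 and WT 3, and DKO 3 was above all. The log2 difference was 0.29 (SE 0.46), and -0.20 (SE 0.24) without WT 2. Ldhb, the isoform of oxidative tissues, had a log2 difference of -0.34 with all arrays and -0.20 without WT 2.

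Slc16a1, the lactate transporter MCT1, read 13.81, 13.77 and 13.52 in DKO 1 to DKO 3 and 13.50, 10.86 and 13.44 in WT 1 to WT 3. The DKO arrays lay above the WT arrays, but DKO 3 exceeded WT 1 by 0.02 only, and in deposited intensity, with no centring, DKO 3 (9468) was below WT 1 (10932). The log2 difference was 1.10 (SE 0.70), and 0.23 (SE 0.15) without WT 2, so the fold went from 2.14 to 1.17. Slc16a3, the exporter MCT4 of highly glycolytic cells, was dim, at 5.21 to 6.31, with log2 differences of -0.43 and -0.30.

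The pyruvate dehydrogenase complex turns pyruvate into acetyl-CoA in mitochondria, and its subunits differed in sign. Pdhb, the E1 beta subunit, read 11.95, 12.13 and 12.29 in DKO 1 to DKO 3 and 12.77, 12.05 and 12.83 in WT 1 to WT 3. All DKO arrays were below WT 1 and WT 3, while WT 2 lay within the DKO range. The log2 difference was -0.42 (SE 0.36), and -0.67 (SE 0.18) without WT 2, or 1.59 times lower in DKO (limma adjusted p = 0.948, unadjusted p = 0.00747). The deposited intensities, with no centring, were 3783, 4185 and 4027 in DKO and 6550, 7463 and 6034 in WT, and on this scale the groups did not overlap. The second Pdhb probe set was much dimmer and went the other way, with log2 differences of 0.78 and 0.26. Pdha1, the E1 alpha subunit, read 12.40, 12.48 and 12.76 in DKO 1 to DKO 3 and 12.41, 9.58 and 12.44 in WT 1 to WT 3. It therefore had a log2 difference of 1.07 with all arrays and of 0.12 without WT 2. Dlat, the E2 subunit, differed by 0.15 and by -0.14 without WT 2.

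Neither of the kinases that inactivate the complex passed the threshold. Pdk1, which is induced in hypoxia, read 10.34, 10.78 and 10.21 in DKO 1 to DKO 3 and 10.00, 10.87 and 10.05 in WT 1 to WT 3. All DKO arrays were above WT 1 and WT 3, and WT 2 was the highest of all. The log2 difference was 0.14 (SE 0.44), but -0.22 with quantile normalization, -0.16 with centring over the tested probe sets and -0.18 with no centring, and it was 0.42 (SE 0.25) without WT 2 (limma adjusted p = 0.948). Its other tested probe sets read 1.08 and 0.88 with all arrays, and 0.50 and 0.37 without WT 2, and on both the DKO arrays lay above all WT arrays. Pdk3 read 10.41, 10.38 and 10.71 in DKO 1 to DKO 3 and 10.12, 7.74 and 10.60 in WT 1 to WT 3. Its groups overlapped, and the log2 difference went from 1.01 to 0.14 without WT 2.

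Genes whose groups did not overlap were about as frequent as elsewhere. With all 6 arrays they were Pfkm, Bpgm and Slc16a1, all higher in DKO, 11.1% of the 27 where 8.53% of all genes tested were on that side, and 0 were lower (2.06% of all genes). Without WT 2 they were Pfkm, Bpgm, Slc16a1 and Pdk1 on the higher side, 14.8% where 12.0% of all genes were, and Hk2 and Pdhb on the lower side, 7.41% where 5.56% of all genes were. Counted by probe set, 6 of the members' 56 were higher without overlap (10.7%, beside 6.97% of all probe sets tested) and 0 lower (3.29%). Without WT 2 these were 8 higher (14.3%, beside 10.3%) and 4 lower (7.14%, beside 8.14%).

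The DKO arrays differed among themselves in the members. On DKO 1, 16 of the 27 genes (59.3%) were below both WT 1 and WT 3 and 8 (29.6%) above both. On DKO 2 these were 16 (59.3%) and 7 (25.9%), and on DKO 3 they were 4 (14.8%) and 15 (55.6%). Of all genes tested 40.5% were below both on DKO 1, 39.6% on DKO 2 and 18.8% on DKO 3, and 35.2%, 33.2% and 49.1% were above both on DKO 1 to DKO 3. The members below both on DKO 1 and also on DKO 2 included Ldha, Pgk1, Pgam1, Tpi1, Aldoa, Pfkl, Pfkfb3 and Pfkfb4, and on DKO 3 Ldha, Pgk1, Pgam1, Tpi1, Aldoa and Pfkl were above both. The median of the members against their mean over the 5 arrays other than WT 2 was -0.20, -0.16 and 0.23 on DKO 1 to DKO 3 and 0.02 and 0.06 on WT 1 and WT 3. For all genes tested these medians were -0.04, -0.05 and 0.13 on DKO 1 to DKO 3 and -0.09 and 0.08 on WT 1 and WT 3. Hk2 and Pdhb were below both on all 3 DKO arrays, and Bpgm, Pdk1, Pfkm and Slc16a1 above both on all 3.

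**Figure D3:**
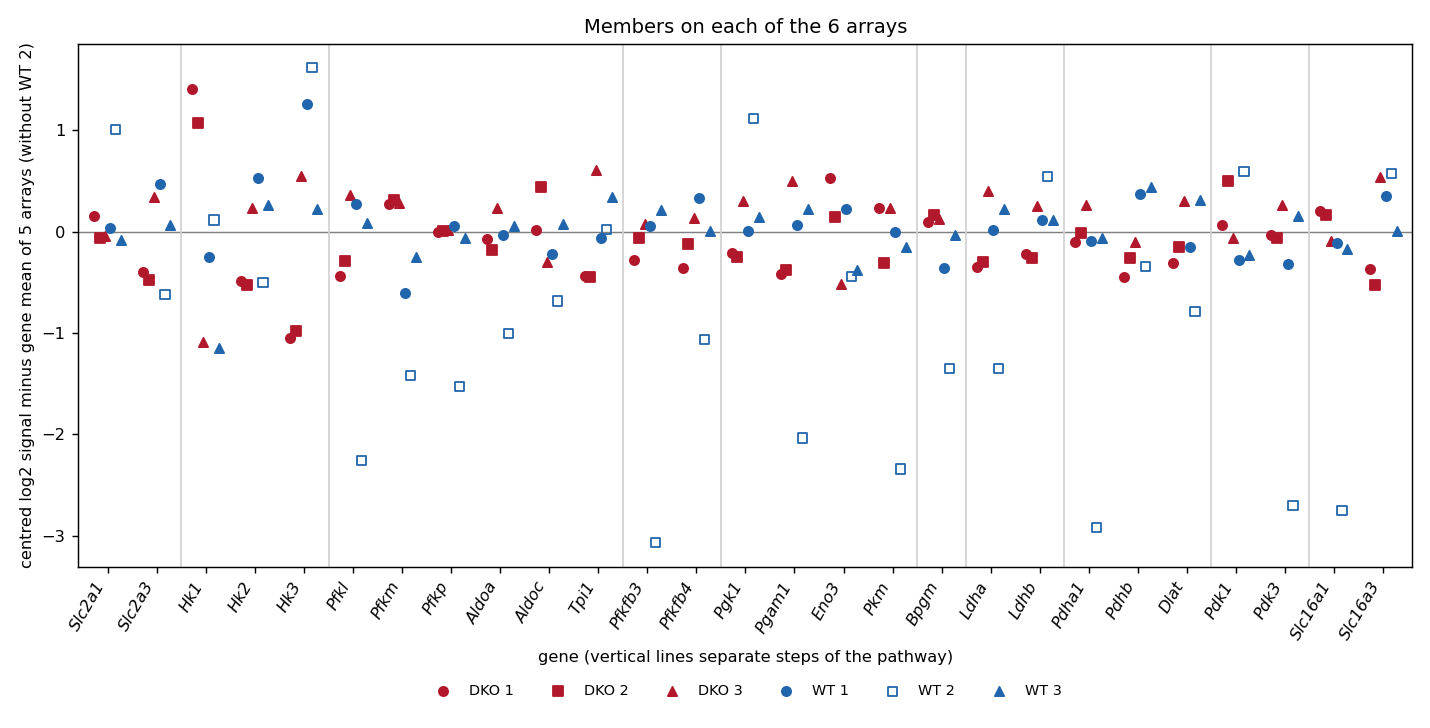
Centred log2 signal of the 27 tested genes on each array, as the difference from the gene's mean over the 5 arrays other than WT 2, ordered along the pathway, with DKO in red and WT in blue. WT 2 (open blue squares) reaches -3.06 for Pfkfb3, DKO 1 and DKO 2 lie apart from DKO 3 for Hk1 and Hk3, and the DKO points of Pfkm coincide above the WT points.

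Probe sets of the same gene disagreed on WT 2. Of the 27 tested genes 17 had more than 1 tested probe set. For Slc2a1, the log2 signal on WT 2 minus the mean of WT 1 and WT 3 was 1.11 for 1 probe set and -2.65 for another. Those of Aldoa ranged from -3.62 to 0.57, those of Pgk1 from -1.66 to 1.04 and those of Bpgm from -4.42 to -1.16. The range of the log2 difference between genotypes over the probe sets of a gene had a median of 0.64 with all 6 arrays and 0.25 without WT 2, and it was narrower without WT 2 in 14 of the 17 genes. Probe sets of opposite sign were found in 7 genes with all arrays and in 8 without WT 2. The leading probe sets of Slc2a3, Hk3, Aldoa, Tpi1, Pgk1, Bpgm and Dlat carry the array maker's suffix for probes that may also bind other transcripts, so their signal may not be of that gene alone.

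**Figure D4:**
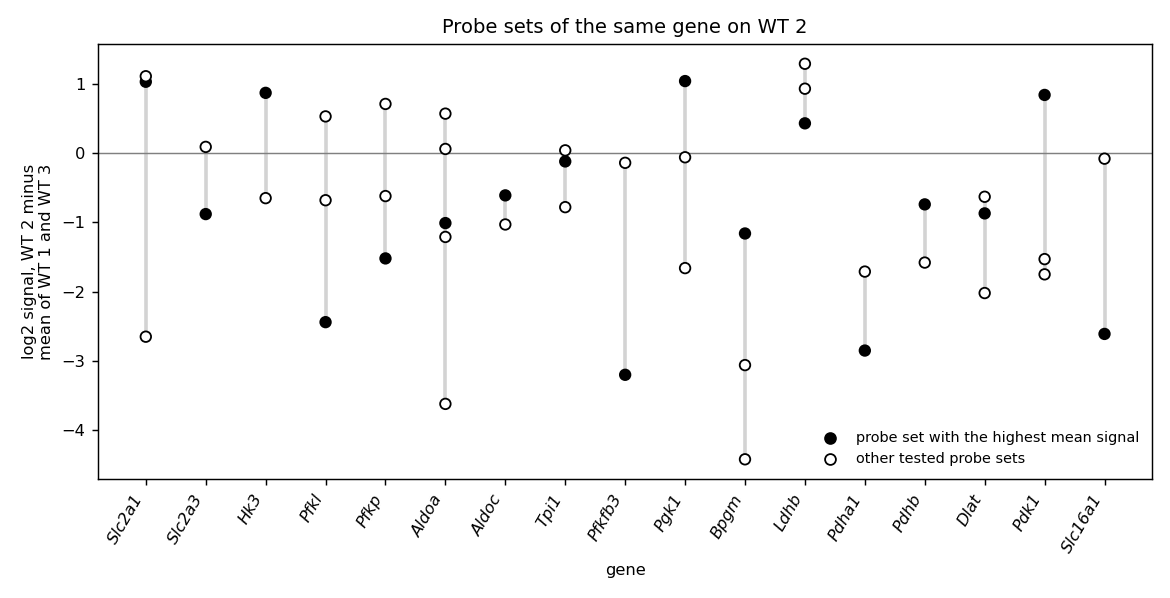
Log2 signal on WT 2 minus the mean of WT 1 and WT 3 for each tested probe set of the 17 genes with more than 1, with the probe set of highest mean signal filled. Probe sets of 1 gene lie up to several log2 units apart, such as 1.11 and -2.65 for Slc2a1.

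The balance between paralogs, the difference of their log2 signals on 1 array, does not change with the amount by which the array was centred. For 6 pairs it was compared between genotypes by an exact two-sided permutation test, which with 3 arrays against 3 cannot give a p under 0.1. The balance of Hk2 over Hk1 was -2.76, -2.48 and 0.46 in DKO 1 to DKO 3 and -0.10, -1.48 and 0.55 in WT 1 to WT 3. It was shifted towards Hk1 on DKO 1 and DKO 2 but not DKO 3, a difference of -1.25 (exact permutation p = 0.3, Benjamini-Hochberg adjusted 0.9). That of Slc16a1 over Slc16a3 differed by 1.53 (exact permutation p = 0.3, adjusted 0.9) and by 0.53 without WT 2. That of Ldha over Ldhb was 6.19, 6.27 and 6.45 in DKO 1 to DKO 3 and 6.21 and 6.41 in WT 1 and WT 3, against 4.41 in WT 2. Outside WT 2 it hardly varied, and the difference of 0.63 became -0.01. The balances of Slc2a1 over Slc2a3, Pfkp over Pfkl and Pdk1 over Pdk3 differed by -0.16, 0.01 and -0.88, each with an exact permutation p of 0.9 or higher, and by 0.48, 0.31 and 0.28 without WT 2, so that the first and the last turned direction. The planned pair of Eno1 and Eno3 was not analysed here.

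Neighbouring pathways held no called gene in either fit, 0 of 83 with all 6 arrays and 0 of 83 without WT 2 by limma, with 2 and 1 at an unadjusted p under 0.05. With all 6 arrays most genes tested had positive differences (70.2%), so the counts without WT 2 are given beside. Of 16 other isoforms and glucose handling genes tested, 13 had a higher and 3 a lower mean in DKO, and 11 and 5 without WT 2. Slc2a4, the insulin-responsive transporter GLUT4, was among them and read 6.29, 6.03 and 6.88 in DKO 1 to DKO 3 and 5.12, 4.82 and 5.32 in WT 1 to WT 3. It was dim, with WT intensities of 16.8, 33.9 and 17.4 and a mean just above the filter (percentile 41.7), which it passed through its DKO values. Its groups did not overlap, with a log2 difference of 1.31 (SE 0.32) (limma adjusted p = 0.822, unadjusted p = 0.00448) and of 1.18 without WT 2. Pfkfb2 and the transporter gene Slc2a8 differed by 0.67 and 0.77, and by 0.58 and 0.54 without WT 2, also without overlap. In deposited intensity, with no centring, both overlapped, with DKO 3 at 139 and 336 beside 198 and 396 on WT 2. In this list 5 of 16 genes were higher without overlap with all arrays, where 8.53% of all genes tested were.

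Of 12 other pyruvate genes 10 had a higher mean in DKO, and 6 without WT 2. Pcx, the pyruvate carboxylase that feeds the tricarboxylic acid cycle, differed by 0.75 and by 0.50 without WT 2, Pck2 by 1.23 and 0.46, and Gpt2 by 0.65 and 0.79. Of 7 genes of the pentose phosphate pathway, which branches off at glucose 6-phosphate, 5 had a higher mean with all arrays and 3 without WT 2, with Pgd at -0.72 and -0.30, Rpia at 1.16 and 0.22 and Pgls at 0.81 and 0.11. Of 17 genes of the tricarboxylic acid cycle 11 had a higher mean with all arrays and 5 without WT 2, with Cs at -0.58 and -0.20 and Idh2 at 1.02 and 0.17. Sdhc, a subunit of succinate dehydrogenase, was 2.83-fold higher in DKO with all arrays and differed by -0.03 on the log2 scale without WT 2. Under quantile normalization 8 of the 17 were higher and 9 lower. The medians of these 3 lists were 0.77, 0.40 and 0.45 with all 6 arrays, beside 0.30 for all genes tested, and -0.01, -0.01 and -0.05 without WT 2, beside 0.01. Under quantile normalization they were 0.42, 0.04 and -0.01, beside 0.01 for all genes.

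Genes of the HIF pathway and its targets outside glycolysis had 19 of 20 on the higher side with all arrays. Without WT 2 there were 15 of 20, and under quantile normalization of the 6 arrays 14 of 20. The medians were 0.56 with all arrays and 0.11 without WT 2, beside 0.30 and 0.01 for all genes tested. P4ha1, a collagen prolyl hydroxylase, differed by 1.93 and by 0.80 without WT 2, Vegfa by 0.76 and 0.34, and Egln1, the oxygen sensor PHD2, by 0.87 and 0.29. The groups did not overlap in 4 of the 20 genes, these 3 among them, where 8.53% of all genes tested were higher without overlap. In deposited intensity, with no centring, these 3 did overlap. DKO 3 read 301, 1313 and 1802 beside 321, 1458 and 1943 on WT 1. A list of regulators of glycolytic genes had 11 tested, among them the amino acid transporters Slc7a5 and Slc1a5. All 11 had a higher mean with all arrays, 7 did without WT 2 and 10 did under quantile normalization. The medians were 0.98 with all arrays and 0.34 without WT 2, beside 0.30 and 0.01 for all genes tested. Mycn read 11.57, 11.84 and 9.73 in DKO 1 to DKO 3 and 9.59, 8.73 and 9.79 in WT 1 to WT 3, high on DKO 1 and DKO 2, with DKO 3 at the level of WT. Its log2 difference was 1.67, and 1.35 without WT 2. Myc differed by 0.25 with all arrays and by -0.38 without WT 2. Prkaa2, a catalytic subunit of the energy sensor AMPK, differed by 0.98 and 0.80, and Mlxip, the glucose-sensing factor MondoA, by 1.27 and 0.70.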

How the data were processed

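Total RNA of 6 samples, 3 per genotype, was hybridised to 1 array each. The authors deposited 1 linear intensity per probe set and array, computed by MAS5 according to the submitters' processing notes. Each array had a trimmed mean of 500 (2% trimmed at either end), so the arrays share a scaling target. No detection calls were used.

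Of 45037 probe sets without controls, 34945 had 1 gene symbol, 932 several and 9160 none. Values were taken as log2(intensity + 16), centred on each array's median, and the 27022 whose mean exceeded percentile 40 were fitted with limma 3.58.1 (R 4.3.3), with group as the single term, a variance trend, two-sided, and Benjamini-Hochberg adjustment over all of them. Fits that leave out an array kept the same probe sets. The fit was tested on simulated data whose spread was taken without WT 2, so its behaviour with such an outlying array was not tested. Python 3.11.15 with pandas 2.3.3, scipy 1.17.1 and matplotlib 3.10.9 made tables, permutation tests and figures. Promoters came from RefSeq (GRCm38.p6).

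Members, lists and tests were chosen with earlier results of these data known. Values on every array are given by rule for members without overlap, the 8 with the smallest p and those at controlling steps. Slc2a3, Hk1, Pdhb, Tpi1 and Eno2 and, of other lists, Slc2a4, Mycn, Dntt and Cd22 were added after their values were seen. Of other lists the 3 genes with the smallest p were named, and Myc was added after its values were seen. The number of arrays limits the precision. Alternatives were other normalizations, pseudocounts, filters and variance models, each array left out, the replicate number as a block, and another probe set rule.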

Additional observations from a re-analysis of the deposited data

How the results depend on the processing

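The count of called members was 0 under each alternative except array weights, where it was 12 (5 higher, 7 lower), and that weight estimate stopped before converging, with a weight of 30.8 for WT 1 and 0.0526 for WT 2. Over all probe sets limma called 2 with the settings used, 8129 with array weights, 1 with a robust trend, 1 with a filter at percentile 60, 0 with a pseudocount of 1, 0 with quantile normalization, 0 with centring over the tested probe sets, 0 without centring and 0 with the replicate block. It called 5 when WT 2 was left out with quantile normalization and 5 when it was left out with no centring. With each array left out in turn the calls ranged from 0 to 7, the 7 being without WT 2, and the called members stayed at 0. In the same fits the number of members with a higher mean ranged from 12 to 18 and their median from -0.12 to 0.50, with 12 and -0.12 both without WT 2.

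The replicate numbers have no stated meaning. Deviations from the group means correlated at -0.15, 0 and 0.33 for same-numbered arrays and at -0.39 to 0.32 for the others. As WT 2 enters the WT mean, this does not settle whether the numbers pair the samples. With the replicate block 0 members were called. Of the 15 members followed through the alternatives, 9 kept their sign in each. With WT 2 left out and quantile normalization, or WT 2 left out and no centring, the log2 difference turned to 0.07 and 0.05 for Slc2a1, -0.31 and -0.29 for Pfkl, -0.19 and -0.20 for Pfkfb3 and -0.17 and -0.18 for Ldha. Ldha read -0.00 with centring over the tested probe sets and -0.02 with no centring, and Pdk1 -0.22 with quantile normalization, -0.16 with centring over the tested probe sets and -0.18 with no centring. With the mean over probe sets Slc2a1 read 0.24 and Pfkp -0.11. With 1 array left out the ranges were -0.51 to 0.04 for Slc2a1, -0.31 to 0.96 for Pfkl, -0.22 to 1.42 for Pfkfb3, -0.20 to 0.59 for Ldha and -0.03 to 0.42 for Pdk1. The balance of Pfkp over Pfkl read -0.01 with a pseudocount of 1 and -0.17 to 0.31 with 1 array left out, that of Slc2a1 over Slc2a3 -0.55 to 0.48, that of Ldha over Ldhb -0.01 to 1.00 and that of Pdk1 over Pdk3 -1.57 to 0.28. The cause of these changes was not tested.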
